A study of Mus musculus with 18 samples.

Results

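CCR2+ cardiac resident macrophages (CRMs) from aged mice were set directly against CCR2+ CRMs from mice on a high-fat diet, with 3 libraries in each group and no control library shared between them. These 6 libraries were chosen by their labels alone from the 18 libraries of the series, and every gene of the count table entered. The aged mice were female C57BL/6J mice of 20 months on chow, as the study's methods describe them. The labels name the other mice only as a high-fat diet group, and their age, sex, strain and length of feeding are not given in the sources used here, so that age and diet cannot be told apart as the source of a difference. The 3 CCR2+ libraries of young mice (3 months, named as controls in the labels) are given beside the results as a background level. Cells came from the left ventricle, were separated by flow cytometry on CD11b, CX3CR1 and CCR2, and went into full-length SMART-Seq cDNA libraries of at least 5000 cells. Nothing in the labels says whether a library came from 1 animal or from several, so that the errors below measure the spread between libraries.

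Macrophages of the heart fall into a long-lived population that renews itself in the tissue and lacks the chemokine receptor CCR2, and a CCR2+ population that is replenished from blood monocytes. CCR2+ macrophages are known for antigen presentation on MHC class II and for chemokines and cytokines that draw in further leukocytes. Both old age and fat-rich feeding are known to alter how macrophages handle lipid and iron, and how strongly they respond to interferon.

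Total counts ran from 39753911 to 54690968 in aged and from 45799310 to 52436469 in high-fat diet libraries, so that 3 counts, the limit a count of 0 allows, stood for 0.0576 to 0.0745 CPM (a gene's counts scaled to a common library total, here with totals corrected by the TMM method). This limit covers counting error only, since amplified reads are not independent molecules. Ccr2 itself stood at 383, 338 and 134 CPM in the aged libraries and at 167, 348 and 297 CPM in the high-fat diet libraries, so that the groups overlapped. Lyve1, Folr2 and Timd4 mark resident CCR2- macrophages. Timd4 was at 0.388 to 2.4 CPM in 5 of the 6 libraries and at 22.3 CPM in high-fat diet library 2. Lyve1 was more abundant, with a mean of at least 50 CPM over the 6 libraries. The 10 markers listed for resident cells summed to 805 to 1512 CPM in aged and 1460 to 2568 CPM in high-fat diet libraries. Adgre1, which encodes F4/80, stood at 146 to 317 CPM in aged and 339 to 735 CPM in high-fat diet libraries, while Csf1r, the receptor for the macrophage growth factor, stood at 298 to 633 CPM and 384 to 645 CPM. The sorting markers Itgam (CD11b, 31.9 to 142 CPM over the 6 libraries) and Cx3cr1 (19.8 to 343 CPM) were detected in every library. Xist, transcribed from the inactive X chromosome of female cells, was detected in all 6 libraries at 2.5 to 288 CPM, and Ddx3y, Eif2s3y and Kdm5d of the Y chromosome stayed at or under 1.8 CPM. Uty, also Y-linked, reached 9.77 CPM in aged library 1 and was at most 0.273 CPM in the other 5.

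The clearest differences lay in 2 abundant genes. Trf, which encodes the iron carrier transferrin, stood at 283, 248 and 414 CPM in the 3 aged libraries and at 1369, 1344 and 1762 CPM in the 3 high-fat diet libraries. The highest aged library was thus far under the lowest high-fat diet library. Its mean was 315 ± 88.1 CPM (SD, n = 3) in aged and 1492 ± 235 CPM (SD, n = 3) in high-fat diet CRMs, a log2 fold change of -2.24 with a standard error of 0.32. Spp1, which encodes the secreted matrix protein and cytokine osteopontin, went the other way, at 741, 452 and 1063 CPM in aged and 171, 126 and 99.4 CPM in high-fat diet libraries. Its means of 752 ± 306 CPM (SD, n = 3) and 132 ± 36.4 CPM (SD, n = 3) gave a log2 fold change of 2.51 with a standard error of 0.45. Young libraries held 652 to 5286 CPM of Trf and 223 to 3651 CPM of Spp1, so that for both genes the 3 young libraries were spread more widely than either of the other groups. On GRCm38 Trf (ENSMUSG00000032554) lies on the minus strand of chromosome 9 from 103204001 to 103230444, and Spp1 (ENSMUSG00000029304) on the plus strand of chromosome 5 from 104435118 to 104441050.

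Of 12441 genes left by edgeR's filter on low counts, 0 (0%) met both call thresholds, an adjusted p below 0.05 together with a log2 fold change over 2 in size, and 0 met the first of them alone in edgeR's quasi-likelihood test. The smallest adjusted p of that test was 0.56, which Trf and Spp1 shared with every other gene of the leading lists below. At an unadjusted p under 0.05, 633 genes were higher (5.09% of the genes tested) and 448 lower (3.6%) in aged than in high-fat diet CRMs. DESeq2 on the same libraries called 280 genes higher (2.48% of the 11305 genes to which it gave an adjusted p) and 124 lower (1.1%), 3.57% in all, and limma-voom called 0. Of these 404 calls, 146 were genes that edgeR's filter had left out, 3 of the others had a mean under 1 CPM, 111 one of 1 to 10 CPM, 143 of 10 to 50 CPM, 1 of 50 to 200 CPM and 0 a higher one. With 3 libraries against 3 an exact permutation test of a single gene cannot go below p = 0.1, so none is given.

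Replicates differed from each other most among genes of low level. The highest library exceeded the lowest by a median of 11.7-fold in aged and 18.2-fold in high-fat diet CRMs for 4154 genes of 10 to 50 CPM, but by 1.85-fold and 1.78-fold for 578 genes of 200 to 1000 CPM, and by 1.77-fold and 1.51-fold for 117 genes above 1000 CPM. A fit of the 695 genes that averaged 200 CPM or more was therefore added after seeing the data. In that fit Spp1 was called (log2 fold change 2.74, adjusted p = 0.0113 from edgeR; 1 of 695 genes, 0.144%) and Trf passed the adjusted p just short of the fold threshold (log2 fold change -1.96, adjusted p = 0.0129 from edgeR), which are 2 of the 695 genes (0.288%). Spp1 reached the limit of 200 CPM only through the aged libraries, so that its entry into this fit was not independent of the difference. With each library left out in turn, edgeR's adjusted p on these genes ran from 0.00145 to 0.0672 for Spp1 and from 0.0211 to 0.142 for Trf. It was over 0.05 for both genes without high-fat diet library 1 (Spp1 0.0611, Trf 0.103) and without high-fat diet library 2 (0.0672 for each), and for Trf without aged library 2 (0.142).

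**Figure D1:**
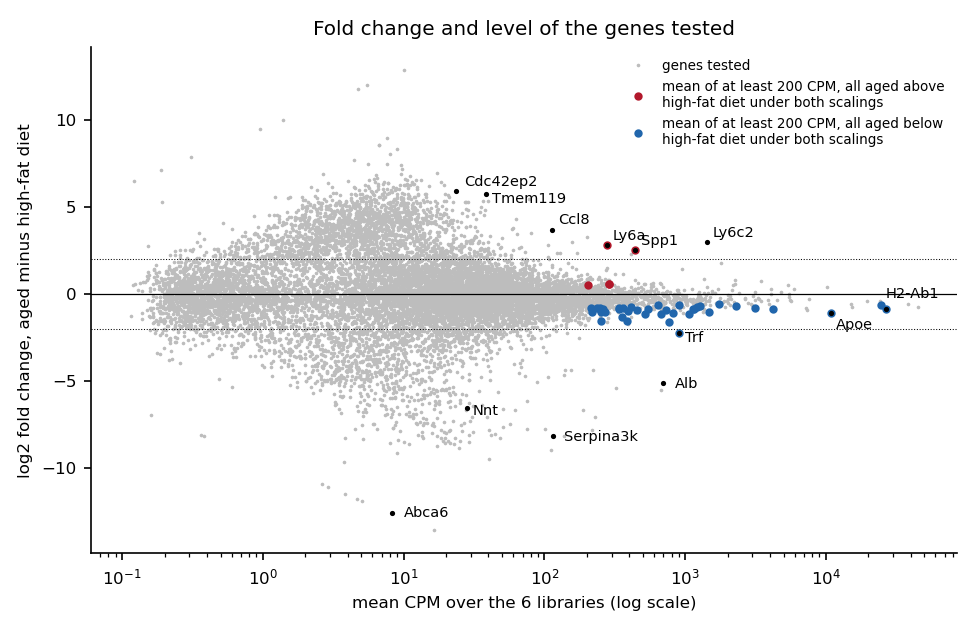
Log2 fold change of each of the 12441 genes tested (aged minus high-fat diet, from edgeR with TMM scaling) against its mean CPM over the 6 libraries on a log axis. Dotted lines mark log2 fold changes of -2 and 2, and coloured points are the genes of at least 200 CPM whose groups did not overlap under either scaling. The cloud is widest at low levels and narrows above 100 CPM, where Spp1 and Ly6a stand above and Trf below the other coloured points.

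The scaling moved the centre of the comparison. Over all genes tested the median log2 fold change came to -0.06 under TMM scaling and to -0.23 under RLE, against 0.23 when libraries were scaled by their totals (library size alone), and the main gene lists are therefore also given relative to that median. Among the 695 genes of at least 200 CPM, all 3 aged libraries lay above all 3 high-fat diet libraries for 5 genes (0.719%) and below for 95 (13.7%) under TMM, but for 30 and 38 genes under library size alone. Groups that did not overlap under either scaling were left for 5 genes above (0.719% of the 695) and 38 below (5.47%). Over all genes tested, 737 lay above (5.92%) and 757 below (6.08%) under TMM, 1023 (8.22%) and 452 (3.63%) under library size alone, and 733 (5.89%) and 451 (3.63%) under both. Only genes that passed this check under both scalings are described below as lying apart, unless the text says otherwise, and they were chosen after their values were seen.

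Of the 38 abundant genes below, 36 were protein-coding. Hmox1, whose product breaks down heme and releases its iron, stood at 441, 497 and 315 CPM in aged and 690, 1170 and 928 CPM in high-fat diet libraries (log2 fold change -1.15, standard error 0.35). Ftl1, the light chain of the iron store ferritin, stood at 22310, 16830 and 18090 CPM in aged and at 28810, 29880 and 31240 CPM in high-fat diet libraries (log2 fold change -0.65, standard error 0.12). Apoe, the apolipoprotein that macrophages secrete with effluxed cholesterol, stood at 5558, 6145 and 8778 CPM in aged and 16620, 11180 and 16380 CPM in high-fat diet libraries (log2 fold change -1.11, standard error 0.21). Young libraries held 590 to 1131 CPM of Hmox1, 23600 to 69250 CPM of Ftl1 and 8877 to 28480 CPM of Apoe, so that for all 3 genes every young library was above every aged one under TMM, while under library size alone they overlapped. Trf and Apoe are also transcripts of the liver, and high-fat diet library 3 held liver transcripts, as described below. Without that library their log2 fold changes were -2.11 and -1.03.

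Further genes among the 36 were picked after their values were seen. The lectin genes Mgl2 (360 to 845 CPM in aged, 1352 to 1705 CPM in high-fat diet), Cd209a (87.9 to 594 CPM and 1071 to 1230 CPM) and Clec4d (139 to 239 CPM and 414 to 631 CPM) were lower in each aged library. So were Ctsh, a cathepsin (847 to 995 CPM and 1300 to 1934 CPM), and Hexa, a subunit of hexosaminidase (227 to 442 CPM and 641 to 753 CPM), and Cst3, which encodes the protease inhibitor cystatin C (2094 to 3839 CPM and 4277 to 6483 CPM). Sqstm1, a cargo receptor of autophagy also known as p62 (782 to 1079 CPM and 1448 to 2381 CPM), and Map1lc3b, which coats autophagosomes (226 to 346 CPM and 352 to 672 CPM), did likewise. The aged and high-fat diet ranges of Map1lc3b almost met. The chemokine genes Pf4 (449 to 670 CPM and 831 to 1285 CPM) and Ccl6 (1690 to 2910 CPM and 3282 to 4967 CPM) were lower as well. Fold changes of the genes in this paragraph ran from -0.77 for Ctsh to -1.63 for Cd209a on the log2 scale.

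The 5 abundant genes above were Spp1, Ly6a, Tnf, M6pr and Clec4a3, of which Spp1, Ly6a and Tnf averaged 200 CPM only through the aged libraries, where they were high. Ly6a, the surface protein Sca-1 that interferons induce, stood at 1157, 200 and 101 CPM in aged and 86.6, 51.3 and 67.1 CPM in high-fat diet libraries (log2 fold change 2.83, standard error 0.87). Aged library 1 stood far above the others, and without it the log2 fold change was 1.13. Tnf, the inflammatory cytokine, stood at 221, 199 and 294 CPM in aged and 159, 198 and 146 CPM in high-fat diet libraries, a log2 fold change of 0.50 with a standard error of 0.45. The lowest aged and the highest high-fat diet library of Tnf differed by under 1 CPM. M6pr, a sorting receptor for lysosomal enzymes (log2 fold change 0.58), and Clec4a3, a C-type lectin receptor (0.59), differed by less than 2-fold as well.

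**Figure D2:**
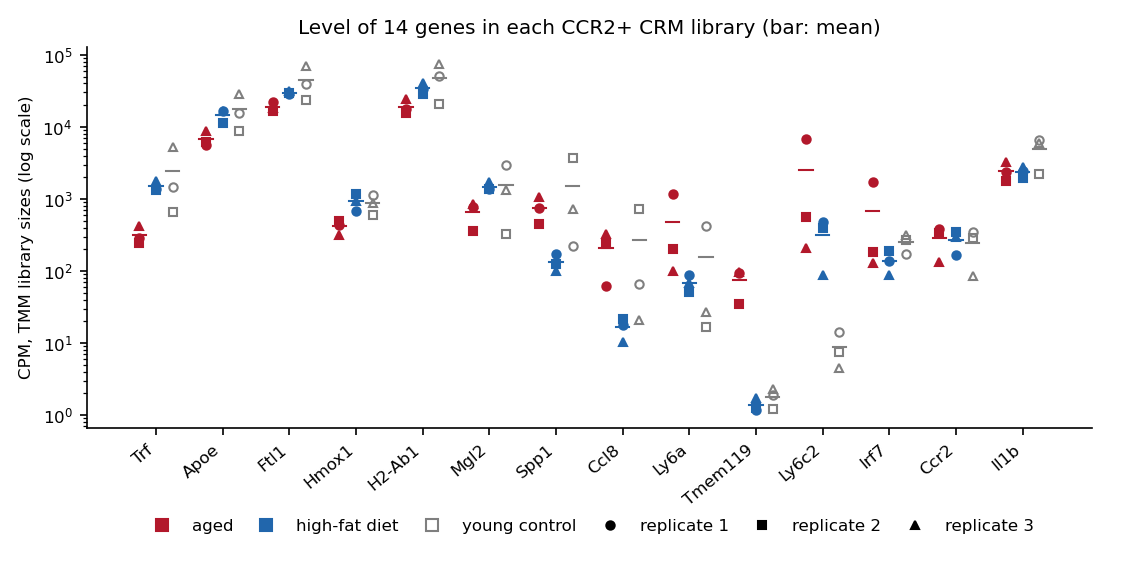
Level of 14 genes in each CCR2+ CRM library, in CPM with TMM library sizes on a log axis. Filled red points are aged, filled blue points high-fat diet and open grey points young control libraries, the marker shape gives the replicate and the short bar the mean. For Trf, Apoe, Ftl1, Hmox1, H2-Ab1 and Mgl2 the red points lie under the blue ones and for Spp1, Ccl8, Ly6a and Tmem119 above them, while Ccr2, Irf7 and Il1b overlap.

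Below 200 CPM the named genes were mostly at about 1 CPM in one group and well over 10 CPM in the other. Higher in aged CRMs, by the smallest p and a log2 fold change over 2, were Spp1 and 11 further genes, none of them called by edgeR. Ccl8, a chemokine for monocytes and T cells, stood at 62.4, 237 and 329 CPM in aged and 17.8, 21.7 and 10.4 CPM in high-fat diet libraries (log2 fold change 3.66, standard error 0.81). Tmem119, best known as a marker of microglia, stood at 93, 34.9 and 97.8 CPM against 1.17, 1.27 and 1.74 CPM (log2 fold change 5.75, standard error 1.14). All 3 young libraries held 1.2 to 2.27 CPM of Tmem119, close to the high-fat diet level. Hcar2, the receptor for niacin and ketone bodies, stood at 82.4, 11.8 and 114 CPM against 1.74 to 2.91 CPM, and Slc12a4, a potassium and chloride cotransporter, at 21.3 to 49.6 CPM against 0.763 to 1.14 CPM.

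The same set held Nsun2, which methylates cytosines in RNA (47 to 113 CPM in aged, 1.94 to 3.57 CPM in high-fat diet), Acad9, an assembly factor of respiratory complex I (26 to 54.1 CPM and 0.502 to 1.09 CPM), and Anapc1, a subunit of the anaphase-promoting complex (18.5 to 68.4 CPM and 0.521 to 0.945 CPM). Cdc42ep2, an effector of the GTPase CDC42, stood at 23.3 to 72.5 CPM against 0.516 to 0.918 CPM. Pgap2, which remodels GPI anchors, Dpp3, a dipeptidyl peptidase, and Tjap1, a junction-associated protein, completed it, with 19.3 to 95.6 CPM in aged and 0.462 to 3.45 CPM in high-fat diet libraries. The young libraries were uneven for Nsun2 (2.68 to 35.2 CPM), Anapc1 (1.55 to 129 CPM), Pgap2 (1.11 to 53.9 CPM) and Tjap1 (0.964 to 170 CPM), each high in 1 library. DESeq2 gave 10 of the 12 an adjusted p under 0.05, from 0.00473 for Cdc42ep2 to 0.0458 for Dpp3, but not Spp1 (adjusted p = 0.419) or Ccl8 (adjusted p = 0.113). Over all genes it called 2.48% higher. The 12 were picked by their p in the same libraries, so that this count is no independent support for them.

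Lower in aged CRMs were Trf and 11 further genes. Nnt, the mitochondrial transhydrogenase that feeds NADPH to antioxidant defence, stood at 0.672, 0.602 and 0.517 CPM in aged and at 19.9, 54.6 and 92.2 CPM in high-fat diet libraries (log2 fold change -6.53, standard error 1.35). Young libraries held 5.31, 1.23 and 353 CPM of it. The strain of the high-fat diet mice is not given, and the part of strain in the Nnt result was not tested. Akr7a5, an aldehyde reductase, stood at 0.601 to 1.11 CPM against 22.1, 78.3 and 114 CPM, and in young libraries at 1.65, 1.55 and 466 CPM. For both genes young library 3 was thus the highest of the 9 libraries. Young library 3 and high-fat diet library 3 also held liver transcripts, as described below. Without high-fat diet library 3 the log2 fold change was -5.96 for Nnt, and -5.89 instead of -6.39 for Akr7a5. Abca6, a lipid transporter of the ABC family, had 0 counts in each aged library and 9.85, 22.6 and 17.4 CPM in the high-fat diet libraries, at least 272-fold lower in aged CRMs if a floor of 3 counts per library is used. It was also at or near 0 in the young libraries (0 to 0.0877 CPM).

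Snx14, a sorting nexin, Cenps, a centromere protein, Ube2q2, a ubiquitin-conjugating enzyme, Tmem138, a ciliary membrane protein, and Laptm4b, a lysosomal membrane protein, stood at 0.27 to 1.55 CPM in aged and at 15.2 to 149 CPM in high-fat diet libraries. The predicted genes Gm11127 and Gm44805 had 0 counts in the aged libraries and were spread over the high-fat diet libraries from 0.785 to 24.5 CPM and from 0.74 to 92.1 CPM. Serpina3k, a serine protease inhibitor made by the liver, stood at 0.311 to 1.69 CPM in aged and at 20.9, 3.04 and 661 CPM in high-fat diet libraries, and without high-fat diet library 3 its log2 fold change was -3.89 instead of -8.15. DESeq2 called 10 of the 12 genes lower in aged CRMs, with adjusted p-values from 3.17e-06 for Abca6 to 0.00675 for Ube2q2, but not Trf (adjusted p = 0.428), and it gave none to Serpina3k. Over all genes it called 1.1% lower, and these 12 were likewise picked by their p in the same libraries.

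Genes of the process lists are next given by their counts and medians. No list held a member called by edgeR, so that the 2 members with the highest level are named from each, with further members of interest. Medians are to be read against those of all genes tested, -0.06 with TMM and 0.23 with library size alone.

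Genes of the interferon response stood mostly higher in aged CRMs. Of its 48 genes, 42 were higher in aged than in high-fat diet CRMs and 6 lower, 10 were higher at an unadjusted p under 0.05 (5.09% of all genes tested), and the median log2 fold change was 1.18 with quartiles of 0.35 and 2.31. Relative to all genes the median was 1.24 with TMM, 1.12 with RLE and 1.27 with library size alone. Much of this height belonged to 1 library. The summed level of the list was 19460 CPM in aged library 1, 5779 and 3655 CPM in the other 2 aged libraries and 4687 to 5637 CPM in the high-fat diet libraries. Among CCR2- libraries the one labelled aged 1 was likewise highest, at 21640 CPM against 5764 and 8856 CPM in the other 2 aged and 3653 to 4398 CPM in the high-fat diet libraries. Irf7, a transcription factor of the interferon response, stood at 1745, 184 and 128 CPM in aged and 139, 188 and 89 CPM in high-fat diet libraries. Ifitm3, a membrane protein that restricts viral entry, stood at 9237, 1913 and 1735 CPM and at 3027, 2843 and 1824 CPM. Without aged library 1 the list's median was 0.28 against -0.17 for all genes tested, and the log2 fold changes were 0.16 instead of 2.31 for Irf7 and -0.50 instead of 0.74 for Ifitm3.

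Apart from these, 6 of the 48 genes lay higher in each aged library, against 5.89% of all genes tested, and 0 lower. Usp18, which turns off interferon signalling, stood at 267, 36.8 and 24 CPM in aged and 6.91, 7.96 and 9.23 CPM in high-fat diet libraries, and Irgm1, an immunity-related GTPase, at 250, 44.6 and 40.6 CPM and 13.5, 5.14 and 5.56 CPM. Without aged library 1 their log2 fold changes were 1.91 and 2.39. Iigp1, another such GTPase, stood at 46.6, 53.9 and 36.7 CPM and 2.74, 1.47 and 27.4 CPM, and Parp14, Cmpk2 and Gbp5 had at least 1.49 CPM in each aged library. Isg15, a ubiquitin-like protein, overlapped at 15.5 to 80.7 CPM and 14.6 to 36.8 CPM. Summed monocyte markers were also highest in aged library 1, though single members went both ways. The 12 genes of the monocyte list summed to 19490, 3817 and 1782 CPM in aged and 3547, 4568 and 2117 CPM in high-fat diet libraries. In aged CCR2- libraries they summed to 4471, 2278 and 2335 CPM. Of the 12 genes, 8 were higher and 4 lower in aged CRMs, and Ccr2 overlapped. Their median log2 fold change was 0.94, or 0.20 without aged library 1, against -0.17 for all genes tested without it. Ly6c2, which marks inflammatory monocytes and which interferon also induces, stood at 6880, 556 and 206 CPM and at 475, 389 and 86.6 CPM, against 4.49 to 14.2 CPM in young libraries, and Plac8 at 6177, 1694 and 471 CPM and 977, 1180 and 300.3 CPM. The part of these monocyte transcripts in the interferon result was not tested.

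Genes of MHC class II presentation stood mostly lower in aged CRMs. Of 16 genes, 14 were lower and 2 higher in aged than in high-fat diet CRMs, and 6 were lower at an unadjusted p under 0.05 (3.6% of all genes tested). The median log2 fold change was -0.73, between -0.85 and -0.58 when each library was left out, and -0.67, -0.68 and -0.64 relative to all genes with TMM, RLE and library size alone. H2-Ab1, a beta chain, stood at 17500, 15730 and 23990 CPM in aged and 33220, 29040 and 40150 CPM in high-fat diet libraries (log2 fold change -0.84, standard error 0.17). Cd74, the invariant chain, stood at 27450, 26980 and 46490 CPM and 54890, 47290 and 65940 CPM (log2 fold change -0.74, standard error 0.21). The aged ranges lay under the high-fat diet ranges for both genes, for Cd74 under TMM alone. H2-Eb1 (9858 to 14400 CPM and 15970 to 23590 CPM) was also apart only under TMM, and H2-Aa overlapped. H2-DMb2, which helps load peptides, and H2-Oa, which restrains that loading, lay apart at 36.2 to 130 CPM against 208 to 324 CPM and 23 to 29.8 CPM against 47.6 to 66.4 CPM. In young libraries H2-Ab1 reached 20740 to 73860 CPM.

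Summed markers of other cells that carry MHC class II were lower in aged CRMs too, though single members went both ways. The 10 dendritic cell markers summed to 531, 248 and 775 CPM in aged and 1240, 1418 and 1467 CPM in high-fat diet libraries. Cd209a, named above after its values were seen, was the most abundant of them in both groups. Of the 10, 4 had a mean under 1 CPM, and of the 5 tested 4 were lower and 1 higher in aged CRMs. The 9 B cell markers summed to 132, 158 and 201 CPM and to 239, 288 and 904 CPM, and of the 5 tested 3 were lower and 2 higher. Both sums were lower in every aged library under both scalings. The 15 macrophage markers summed to 36230 to 61210 CPM in aged and 72070 to 78730 CPM in high-fat diet libraries, apart under TMM but not under library size alone. The part of these cells in the MHC class II result was not tested. In bulk libraries fewer cells of a type and less RNA per cell cannot be told apart.

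**Figure D3:**
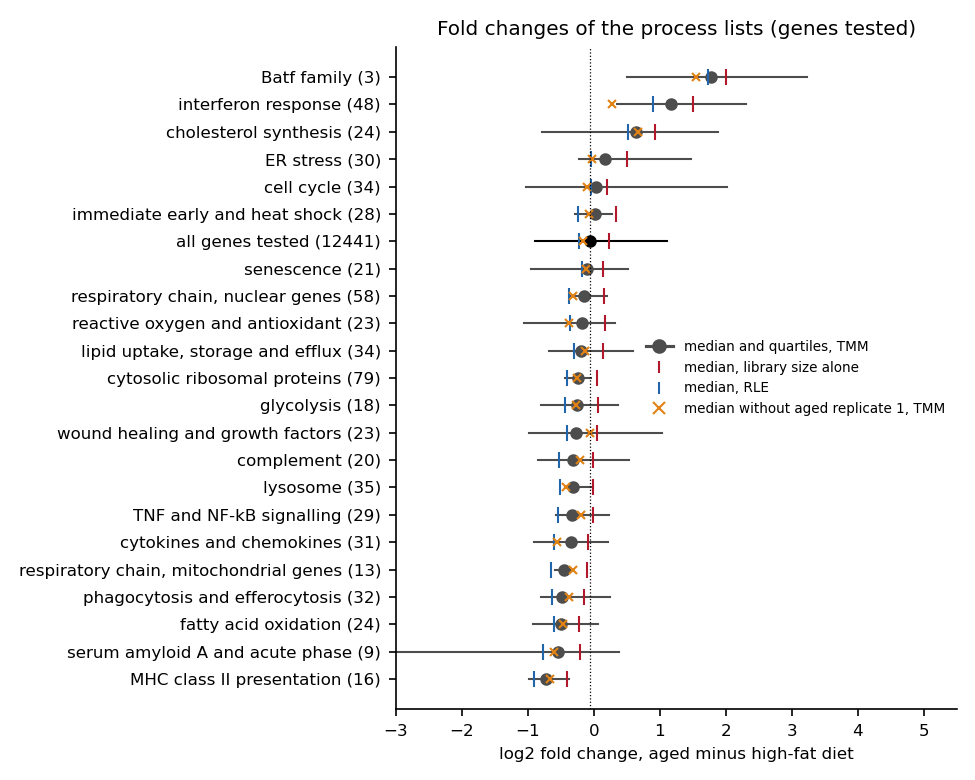
Median (dot) and quartiles (line) of the log2 fold changes of each process list, aged minus high-fat diet, with the number of genes tested in brackets, from edgeR with TMM. Red and blue ticks are the medians with library size alone and with RLE, orange crosses the medians without aged library 1, and the dotted line is the median of all genes; the lower quartile of the acute phase list lies beyond the axis at -7.80. The interferon list stands right of the line at 1.18 and its cross at 0.28, while MHC class II stands left of it at -0.73 and also with each of the other marks.

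Lipid genes went both ways. Of 34 tested genes of lipid uptake, storage and efflux, 13 were higher and 21 lower, with a median of -0.19. At an unadjusted p under 0.05 from edgeR 2 were higher and 2 lower, against 5.09% and 3.6% of all genes tested. The summed level of the list was 11570 to 16000 CPM in aged and 19770 to 27210 CPM in high-fat diet libraries. It was lower in every aged library under both scalings, and Apoe was the most abundant member. Without Apoe the sums were 8367, 5429 and 7220 CPM in aged and 7375, 8595 and 10831 CPM in high-fat diet libraries and overlapped under both scalings. Pnpla2, the lipase that opens stored triglyceride, stood at 98.2, 73.8 and 172 CPM in aged and 34.5, 18.9 and 40.9 CPM in high-fat diet libraries (log2 fold change 1.87, standard error 0.75), and Plin3, a lipid droplet coat protein, at 38.7, 75.2 and 106 CPM and 13.1, 29.4 and 1.99 CPM. Lgals3, a galectin of foamy macrophages, overlapped at 1589 to 3442 CPM and 3124 to 3971 CPM, as did the fatty acid receptor Cd36 at 111 to 567 CPM and 95.1 to 567 CPM. Apoc1, a small apolipoprotein of liver and macrophages, stood at 1.46 to 4.77 CPM in aged and at 11.9, 20.1 and 1082 CPM in high-fat diet libraries, and its log2 fold change was -6.69 with and -2.16 without high-fat diet library 3.

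Cholesterol synthesis had a median of 0.64, with 15 genes higher and 9 lower of 24. None of them reached 100 CPM on average. Mvd, a decarboxylase of the mevalonate pathway (1.55 to 42.4 CPM in aged, 0.281 to 0.74 CPM in high-fat diet), and the squalene synthase Fdft1 (9.04 to 66.4 CPM and 2.98 to 3.65 CPM) lay higher in each aged library, and Lss did so too. Idi1 (1.23 to 6.25 CPM and 11.9 to 34.9 CPM) and Sc5d (2.2 to 5.47 CPM and 9.87 to 57.8 CPM) lay lower. Neighbouring steps of one pathway thus stood on opposite sides. Its most abundant members Ebp (20.2 to 129 CPM and 43 to 231 CPM) and Msmo1 (17.7 to 92.4 CPM and 23.3 to 132 CPM) overlapped. Mvd alone was called by DESeq2 (adjusted p = 0.0181).

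Genes of energy metabolism mostly overlapped between the groups. Fatty acid oxidation had a median of -0.50 over 24 genes, with 17 lower, 7 higher and 0 at an unadjusted p under 0.05, and its most abundant members were Ucp2, a carrier of the inner mitochondrial membrane (760 to 1792 CPM in aged, 1061 to 2051 CPM in high-fat diet), and Etfb, an electron carrier (152 to 238 CPM and 189 to 240 CPM). All 13 genes of the mitochondrial genome were lower in aged CRMs with TMM (10 of them with library size alone), with a median of -0.45, or -0.10 with library size alone and -0.19 without high-fat diet library 3, and relative to all genes it was -0.38 with TMM and -0.34 with library size alone. Among them mt-Co1 stood at 2998 to 4034 CPM and 3446 to 6037 CPM, and mt-Atp6 at 1377 to 1812 CPM and 1577 to 2946 CPM. The 58 nuclear genes of the respiratory chain had a median of -0.15, with library size alone 0.16, and Cox6a1 and Cox4i1 differed by under 0.10 on the log2 scale. Glycolysis had a median of -0.25 over 18 genes, with Eno1 at 1091 to 1464 CPM and 1408 to 1598 CPM and Pkm at 735 to 835 CPM and 320 to 794 CPM.

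Cytokines and chemokines were split by gene. Of 31 genes 10 were higher and 21 lower, with a median of -0.34. At an unadjusted p under 0.05 from edgeR 2 were higher and 4 lower, against 5.09% and 3.6% of all genes tested. Cxcl2, which attracts neutrophils, stood at 4029, 4787 and 6526 CPM in aged and 8303, 7216 and 13390 CPM in high-fat diet libraries (log2 fold change -0.91, standard error 0.26), apart under TMM alone, and its relative Cxcl3 at 21.7, 67 and 90.6 CPM and 181, 147 and 353 CPM. Ccl8 stood higher and Ccl6 and Pf4 lower in aged CRMs, as given above. Il1b (1779 to 3215 CPM and 1933 to 2818 CPM), Ccl2 (279 to 1104 CPM and 648 to 1890 CPM) and Ccl4 (1721 to 4281 CPM and 1843 to 5342 CPM) overlapped, and the log2 fold change of Il1b was 0.04 with a standard error of 0.26. Csf1, the macrophage growth factor, was at 0.815 to 4.59 CPM in aged and at most 0.372 CPM in high-fat diet libraries. The TNF and NF-kB list had a median of -0.33 over 29 genes. In it the endotoxin co-receptor Cd14 stood at 3245 to 6664 CPM and 7230 to 11350 CPM, apart under TMM alone. Nfkbia, the inhibitor of NF-kB, stood at 2039 to 3239 CPM and 2630 to 4501 CPM. Of the 29 genes DESeq2 called 1, the endotoxin receptor Tlr4, which it called higher in aged CRMs. Over all genes it called 2.48% higher. No member of the list lay higher in every aged library under TMM.

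Lysosomal genes had a median of -0.32, with 26 of 35 lower. At an unadjusted p under 0.05 from edgeR 4 of the list were lower and 0 higher, against 3.6% and 5.09% of all genes tested. Its most abundant members Ctsb (2277 to 3649 CPM and 3022 to 5186 CPM) and Ctsz (1130 to 1423 CPM and 1298 to 2405 CPM), both cathepsins, overlapped. With library size alone the median was -0.00, against 0.23 for all genes. Phagocytosis and efferocytosis had a median of -0.48 over 32 genes. Mertk, the receptor for dying cells, stood at 0.765 to 0.998 CPM in aged and 8.86, 20.3 and 1.32 CPM in high-fat diet libraries, whereas Fcgr1, an IgG receptor that interferon induces, stood at 466, 213 and 174 CPM and 138, 7.21 and 23.5 CPM. The complement genes C1qb (3765 to 5715 CPM and 4457 to 7748 CPM) and C1qc (2020 to 3574 CPM and 2794 to 5160 CPM) overlapped, and the 20 tested complement genes had a median of -0.32. Antioxidant genes had a median of -0.18 over 23 genes. Besides Hmox1, the peroxiredoxin Prdx1 lay lower in aged CRMs (1563 to 2088 CPM and 2291 to 3637 CPM), and Gpx1, a glutathione peroxidase, overlapped at 3947 to 7643 CPM and 5326 to 5853 CPM.

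Growth and stress genes showed no common direction. The cell cycle list had a median of 0.04 over 34 genes, with 18 higher and 16 lower. Stmn1, a regulator of microtubules in dividing cells, stood at 116, 86.7 and 120 CPM in aged and 285, 227 and 225 CPM in high-fat diet libraries, and Mki67, the proliferation marker, at 5.24 to 32.1 CPM and 44.8 to 104 CPM. Both lay lower in each aged library, while 5 other genes of the list lay higher, against 3.63% and 5.89% of all genes tested, and Pcna overlapped (79.3 to 303 CPM and 132 to 220 CPM). The senescence list had a median of -0.10 over 21 genes. Cdkn1a, which encodes the cell cycle inhibitor p21, stood at 1580 to 2471 CPM and 1935 to 2816 CPM, and Plaur, the urokinase receptor, at 609 to 1782 CPM and 1531 to 2330 CPM. Cdkn2b, the inhibitor p15, stood at 15.3, 8.54 and 33.4 CPM in aged and had 0.323 CPM in 1 high-fat diet library and 0 counts in the other 2.

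Immediate early and heat shock genes had a median of 0.02, with 14 of 28 on each side, Hspa8 at 1943 to 3299 CPM and 1298 to 2146 CPM and Jund at 919 to 2281 CPM and 1806 to 3647 CPM. Genes of ER stress had a median of 0.18, with Hspa5 at 1090 to 1643 CPM and 919 to 1653 CPM and Ppp1r15a at 691 to 892 CPM and 701 to 1227 CPM. Trib3, a stress-induced pseudokinase, was called by DESeq2 (adjusted p = 0.0036) at 3.59, 0.369 and 49.8 CPM in aged and at most 0.0804 CPM in high-fat diet libraries. Wound healing genes had a median of -0.27 over 23 genes, with Retnla at 1023 to 1185 CPM and 856 to 2338 CPM and Anxa1 at 644 to 1145 CPM and 1024 to 1424 CPM. Areg, the growth factor amphiregulin, lay apart at 21.4, 28.3 and 35.8 CPM in aged and 84.1, 92.1 and 308 CPM in high-fat diet libraries. The 79 ribosomal protein genes had a median of -0.23, or 0.05 with library size alone, and among them Rpl13 stood at 985 to 1328 CPM and 1364 to 2465 CPM.

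Acute phase genes are made chiefly by the liver. Of 9 tested genes 3 were higher and 6 lower, with a median of -0.53, or 0.50 without high-fat diet library 3. Hp, haptoglobin, overlapped at 112 to 925 CPM and 297 to 419 CPM, and Orm1 was at 241 CPM in high-fat diet library 3 and at most 1.07 CPM in the other 5. Saa2 stood at 12.3, 0.382 and 10.4 CPM in high-fat diet libraries and at most 0.0675 CPM in aged ones, and Saa4 at 0.583 to 85.9 CPM and at most 0.269 CPM. Going the other way, Saa3, the form that macrophages make (27.6 to 44.8 CPM in aged, 1.53 to 25.1 CPM in high-fat diet), and Lcn2, the siderophore-binding protein lipocalin 2 (29.1, 10 and 46.9 CPM and 1.23, 0.322 and 0.571 CPM), lay higher in each aged library. DESeq2 called Lcn2 higher (adjusted p = 0.0147) and Saa2 and Saa4 lower (adjusted p = 0.004 and 0.00349). Batf, a transcription factor of the AP-1 family, stood at 77.2 to 146 CPM and 161 to 268 CPM, apart under TMM alone, against 4.83 to 7.59 CPM in young libraries. Its relative Batf3 stood at 45.3, 62.5 and 23.2 CPM in aged and 36.2, 1 and 0.918 CPM in high-fat diet libraries, and Batf2 reached 16.5 CPM in aged library 1 and at most 1.11 CPM in the others. Among muscle genes the cardiac actin Actc1 stood at 18.9, 28.1 and 0.422 CPM in high-fat diet and 0.155 to 0.405 CPM in aged libraries, and smooth muscle Myh11 at 2.11 to 3.41 CPM and 0 to 1.17 CPM.

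Markers of other cell types summed to less than those of macrophages in every library, but 2 single libraries stood out. The monocyte sum of aged library 1 is given above. High-fat diet library 3 held transcripts of hepatocytes. A list of 17 such genes, drawn up after seeing the data, summed to 16480 CPM there against 71.5 to 211 CPM in the other 5 libraries, and to 43130 CPM in young library 3. Alb, serum albumin, stood at 3936 CPM and Apoa2 at 3902 CPM in that high-fat diet library, against 11.8 to 77 CPM and 17.6 to 38.6 CPM in the others. Without it the median log2 fold change of the 17 genes was -1.28 instead of -7.08. Their part in the results for Trf, Apoe, Apoc1, Serpina3k, Nnt, Akr7a5 and the acute phase genes was not tested beyond the values given without that library. Resident CCR2- macrophage markers summed to 805 to 1512 CPM in aged and 1460 to 2568 CPM in high-fat diet libraries. Neutrophil markers summed to 268 to 627 CPM in aged and 85.6 to 396 CPM in high-fat diet libraries, and 4 of the 10 had a mean under 1 CPM. Fibroblast markers summed to 227 to 634 CPM and 150 to 371 CPM, endothelial markers to 46.1 to 99 CPM and 8.42 to 283 CPM, cardiomyocyte markers to 26.8 to 88 CPM and 13.5 to 71.5 CPM, and mural markers to 2.09 to 25.9 CPM and 8.39 to 18 CPM. Markers of T and NK cells summed to at most 71.1 CPM, of mast cells to at most 17 CPM and of platelets to at most 29.4 CPM, while erythroid markers, mostly globins, ran from 59.1 to 1189 CPM. Adipocyte markers summed to at most 39.1 CPM, with Adipoq, Plin1, Cidea, Lep and Adrb3 at 0 counts in all 6 libraries.

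**Figure D4:**
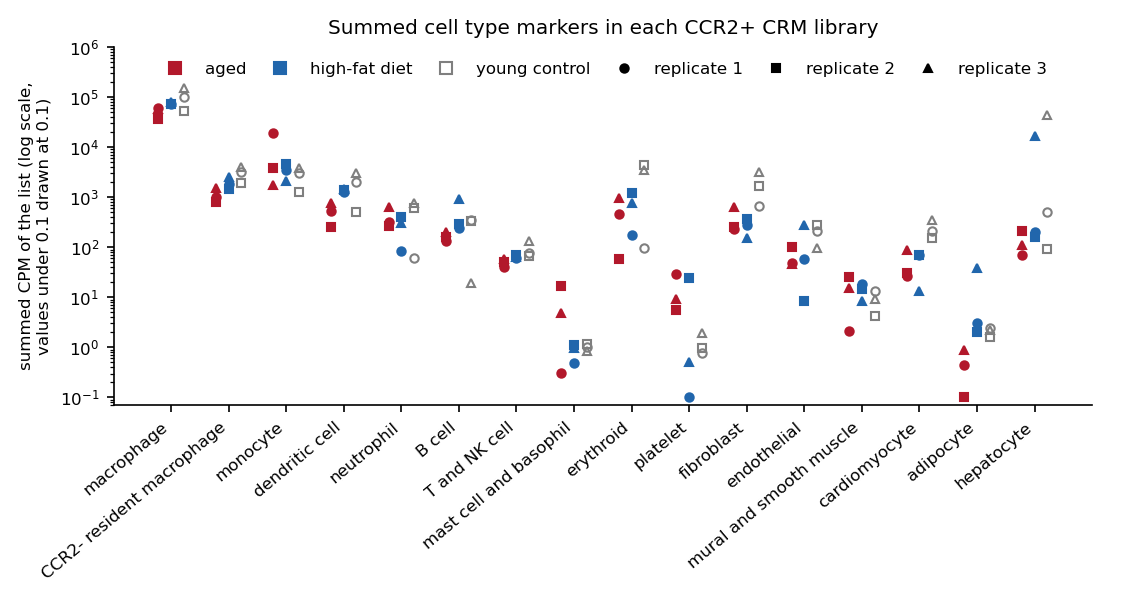
Summed CPM (TMM library sizes, log axis) of 15 lists of cell type markers and of the hepatocyte list in each CCR2+ CRM library, with red for aged, blue for high-fat diet and open grey for young control, and the marker shape for the replicate. Macrophage markers stand highest in all 9 libraries. The monocyte sum reaches 19490 CPM in aged replicate 1, and the hepatocyte sum 16480 CPM in high-fat diet replicate 3 and 43130 CPM in young replicate 3.

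Whether the aged CRMs differed from high-fat diet CRMs in another way in the CCR2- subset was tested as an interaction over 12 libraries. By the same thresholds edgeR called 0 of 14687 genes (0%), and no adjusted p was under 0.131. At an unadjusted p under 0.05 the difference was above 0 for 1429 genes (9.73%) and below 0 for 701 (4.77%). DESeq2 called 984 genes. In aged CCR2- CRMs library 3 lay between libraries 1 and 2 for 97.8% of the 3302 genes that differed at least 2-fold between these 2. The like share was 0.927% for aged CCR2- library 1, 3.87% for library 2 and 18.1% to 55.9% in the CCR2+ and the high-fat diet libraries. Whether aged CCR2- library 3 is independent of the other 2 was not tested, so that the 3 aged CCR2- libraries below may not be 3 independent replicates. Without library 3 edgeR called 0 genes as well. Trf stood at 1176, 677 and 642 CPM in aged and 1680, 2867 and 2333 CPM in high-fat diet CCR2- libraries, and Spp1 at 701, 2083 and 1157 CPM and 472, 130 and 294 CPM. For both genes the groups lay apart on the same side in either subset, and the log2 differences between the subsets were -0.78 and 0.36. Apoe (9295 to 12880 CPM in aged, 27180 to 42370 CPM in high-fat diet CCR2- libraries), Ftl1 and Hmox1 were also lower in each aged CCR2- library. Tmem119 stood at 52.4 to 93.4 CPM in aged CCR2- libraries and at 40.7, 1.35 and 1.66 CPM in high-fat diet ones. Ccl8 overlapped between the CCR2- groups at 378 to 532 CPM and 241 to 575 CPM, with a log2 difference between the subsets of 3.30 (adjusted p = 0.189 from edgeR).

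MHC class II genes stood on opposite sides in the subsets, although no member passed the test of the difference. H2-Ab1 was at 13800, 18200 and 12550 CPM in aged and 10610, 8271 and 7951 CPM in high-fat diet CCR2- libraries, and H2-Eb1 at 7724, 10940 and 7352 CPM and 4733, 4530 and 4747 CPM. In the CCR2- subset every aged library was thus above every high-fat diet library with TMM, the reverse of the order in the CCR2+ subset. With library size alone the groups overlapped for H2-Ab1 in the CCR2- and for H2-Eb1 in the CCR2+ subset. Their log2 differences between the subsets were -1.57 and -1.62 (adjusted p = 0.131 for each from edgeR). Of the 16 genes of the list 6 had a difference below 0 at an unadjusted p under 0.05 from edgeR and 0 above. Over all 14687 genes these shares were 4.77% and 9.73%. The median of the list was -1.28, against 0.07 over the 12441 genes tested in the CCR2+ subset.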

How the data were processed

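RNA from sorted CRMs was sequenced by SMART-Seq, and groups were taken from the sample labels. Per the study's methods and the labels, Cutadapt (trimming), HISAT2 (mapping) and StringTie (assembly) were used. Versions, strand and the handling of reads that map to several genes are not given in the sources used here. The deposited counts, as the authors made them, are whole numbers for 55401 Ensembl genes without normalization. GENCODE M21 on GRCm38 gave symbols for 55141 genes and coordinates.

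From the counts, edgeR 4.0.16 in R 4.3.3 (filterByExpr, TMM, quasi-likelihood test, Benjamini-Hochberg adjustment) compared the 6 libraries. Calls needed an adjusted p below 0.05 and a log2 fold change of over 2 in size, the study's own thresholds. CPM in the text use TMM library sizes. A second fit over 12 libraries tested the interaction with the CCR2 subset. The test was run on simulated data first.

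Members and gene lists were chosen with earlier results of these data known. Named by rule were the 12 protein-coding genes in each direction with the smallest p, a log2 fold change over 2 in size and a mean of at least 10 CPM in 1 group; from each process list up to 4 called genes, or else its 2 most abundant members; sorting markers and sex-linked genes. Other genes were named after their values were seen. All 812 entries of the 38 lists were matched by symbol.

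Alternatives covered other tools (DESeq2 1.42.0, and voom with sample weights in limma 3.58.1), other scaling (RLE, totals alone), filters (none, or 10 counts in each library), fits on 12 or 18 libraries, robust dispersion, the replicate number as a block, other thresholds and leaving out each library. Minimum means of 50, 100 and 200 CPM, DESeq2 and the 200 CPM fit without each library, and non-overlap under both scalings were added after seeing the data. Replicate numbers were not taken to pair samples, and the interaction test took its 12 libraries as unpaired. Deviations from the group means of same-numbered aged and high-fat diet CCR2+ libraries correlated at -0.00648 to 0.0362 over 12441 genes. Those of same-numbered libraries of the 2 subsets correlated at 0.0215 to 0.0914, and those of differently numbered ones at -0.156 to 0.115. Whether same-numbered libraries of the 2 subsets came from the same animals is not given. Figures were drawn with matplotlib 3.10.9. Single-cell data, qPCR and histology were not analysed here, and some genes that the rule or the lists hold are not reported here.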

Additional observations from a re-analysis of the deposited data

Results flagged for a closer look

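For 4 named genes the 3 aged libraries lay on one side of the 3 high-fat diet libraries in CCR2+ CRMs and on the other side in CCR2- CRMs under both scalings, and none passed edgeR's test of that difference. The aged CCR2- libraries include library 3, whose independence of the other 2 was not tested. Pnpla2, the triglyceride lipase, was higher in aged CCR2+ CRMs, and stood at 66.7 to 92.7 CPM in aged and 99.1 to 285 CPM in high-fat diet CCR2- CRMs, a log2 difference between the subsets of 2.88 (adjusted p = 0.189 from edgeR). Pld4, a nuclease of endosomes, stood at 869 to 1091 CPM and 1379 to 1827 CPM in CCR2+ CRMs but at 1026 to 1400 CPM and 732 to 929 CPM in CCR2- CRMs, a log2 difference of -1.30 (adjusted p = 0.189 from edgeR). Bcl2a1d, an inhibitor of cell death with near-identical copies in the genome whose reads the counting may have split, stood at 195 to 278 CPM and 358 to 500.3 CPM against 277 to 408 CPM and 166 to 239 CPM, a log2 difference of -1.53 (adjusted p = 0.19 from edgeR). The predicted gene Gm44805 had 0 counts in aged CCR2+ CRMs and 0 to 0.0183 CPM in high-fat diet CCR2- CRMs, and its fitted log2 difference of -25.47 (adjusted p = 0.155 from edgeR) depends on the prior count.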

How the results depend on the processing

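Apart from the settings named here, each alternative gave 0 calls with edgeR and limma-voom, including edgeR without each library (0 to 0). DESeq2 called 404 genes (280 higher, 124 lower), 1129, 830 and 866 genes (618, 399 and 534 higher, 511, 431 and 332 lower) without high-fat diet libraries 1, 2 and 3 in turn, and 1338, 936 and 985 genes (930, 573 and 491 higher, 408, 363 and 494 lower) without aged libraries 1, 2 and 3. Genes of at least 200 CPM gave 1 call, which was higher, and 0 to 3 (0 to 2 higher, 0 to 1 lower) when each library was left out. DESeq2 called 984 genes for the difference between the subsets. The cause of these differences was not tested. The replicate block gave 0 calls in either test, with a smallest adjusted p of 0.086 from edgeR in the CCR2+ comparison. Same-numbered aged and high-fat diet CCR2+ libraries correlated at -0.00648 to 0.0362 in their deviations. Same-numbered CCR2+ and CCR2- libraries of a group correlated at 0.0215 to 0.0914 over 14687 genes, and differently numbered ones at -0.156 to 0.115. A replicate block within each group, added after seeing the data, gave 0 calls for the difference between the subsets (smallest adjusted p 0.384 from edgeR). Of 2838 repeats of named genes 2707 kept their direction and side of the threshold, and of 693 repeats of list medians 632 moved by less than their spread. Genes picked by their p or by non-overlap in these same libraries are among the named ones, and the main fit called none. The count of 2707 is therefore no independent support for them. At under 50 CPM the spread between libraries limits what 3 libraries a group can show.

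Some small log2 fold changes turned sign. With library size alone they were 0.068 for Ucp2, 0.070 for Etfb, 0.19 for Cox6a1, 0.21 for Cox4i1, 0.0058 for mt-Co1, 0.0085 for Eno1, 0.076 for Ccl4, 0.082 for Ppp1r15a, 0.26 for Gpx1, 0.18 for Pcna, 0.0145 for Cdkn1a, 0.25 for Itgam, 0.35 for Csf1r and 0.26 for Lyve1. With RLE they were -0.24 for Msmo1, -0.15 for Hspa5, -0.18 for Ccr2, -0.063 for Cd36 and -0.14 for Il1b, and with DESeq2 -0.19, -0.10, -0.14, -0.0215 and -0.10 in the same order. With all 18 libraries they were -0.031 for Msmo1, -0.0009 for Ccr2 and -0.023 for Il1b, with no filter -0.0018 for Msmo1 and -0.0034 for Il1b, with 10 counts in every library 0.016 for Csf1r, with limma-voom -0.098 for Hp, 0.0037 for Itgam and 0.082 for Csf1r, and with the replicate block -0.097 for Hp. At 50 CPM they were 0.10 for Cox6a1, 0.13 for Cox4i1, 0.18 for Gpx1, 0.10 for Pcna, 0.14 for Itgam, 0.26 for Csf1r and 0.19 for Lyve1. At 100 CPM they were 0.0063 for Ucp2, 0.0105 for Etfb, 0.12 for Cox6a1, 0.14 for Cox4i1, 0.0108 for Ccl4, 0.022 for Ppp1r15a, 0.20 for Gpx1, 0.13 for Pcna and 0.28 for Csf1r, and at 200 CPM 0.033 for Ucp2, 0.15 for Cox6a1, 0.18 for Cox4i1, 0.023 for Ccl4, 0.043 for Ppp1r15a, 0.21 for Gpx1 and 0.32 for Csf1r. With each library left out in turn the range crossed 0 for Apoa2 (-6.11 to 0.35), Saa1 (-6.22 to 1.31), Cx3cr1 (-1.89 to 0.056), Lyve1 (-1.62 to 1.1), Ebp (-1.26 to 0.02), Chil3 (-1.26 to 0.12), Itgam (-1.16 to 0.15), Pcna (-0.82 to 0.28), Cd36 (-0.64 to 1.40), Hp (-0.61 to 0.83), Ucp2 (-0.60 to 0.0475), Ccl4 (-0.55 to 0.21), Retnla (-0.55 to 0.33), Ifitm3 (-0.50 to 1.12), Msmo1 (-0.35 to 1.11), Gpx1 (-0.34 to 0.16), Cox4i1 (-0.25 to 0.23), Csf1r (-0.25 to 0.24), Il1b (-0.22 to 0.20), Ccr2 (-0.21 to 0.38), Cox6a1 (-0.21 to 0.12) and Hspa5 (-0.11 to 0.38).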
